A study of Tilletiopsis washingtonensis and Meira miltonrushii with 14 samples.

Results

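The 300 *Tilletiopsis washingtonensis* genes with the most normalized reads were divided by how far their level differed between filamentous and yeast growth, and the 112 of them whose mean in filamentous growth lay between 0.714 and 1.4 times the mean in yeast growth are described here. They are 112 of the 7011 genes counted in this species. The members were selected on the authors' normalized counts in all 8 libraries of the species, both for level (the mean of the 2 growth-form means) and for the ratio between forms. Their levels and their small differences between forms are therefore a description, with no test.

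*T. washingtonensis* is a dimorphic fungus of the Ustilaginomycotina, the group of the smut fungi, which can grow as budding yeast cells or as filaments. Filamentous growth (4 libraries) was obtained in Holliday's minimal medium with 1% Tween40, an ester of palmitic acid, as the carbon source, and yeast growth (4 libraries) in the same medium with 1% glucose. All cultures of *T. washingtonensis* were of 1 strain, MCA 4186 (NRRL Y-63783), and came from a preculture of 7 days in potato dextrose broth, followed by 3 days at 25 °C. Growth form and carbon source always changed together and cannot be told apart. The other species of the series, *Meira miltonrushii*, strain MCA 3882 (CBS12591), was grown in the same way, with 3 filamentous libraries on Tween40 and 3 yeast libraries on glucose, and is set beside it once.

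In fungi as in other eukaryotes, the transcripts that stay high in most states of a cell commonly encode ribosomal proteins, translation factors, histones, chaperones and enzymes of central metabolism, and are known as housekeeping transcripts. Such genes serve as internal standards when the expression of other genes is measured, since a level that holds between states gives a common scale. All 112 identifiers matched a locus tag of the reference assembly Tilwa1, which names no product for them, so no member is assigned to any of those classes here.

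Gene counts totalled 12.3 M to 30.3 M in the filamentous libraries and 21.3 M to 30.0 M in the yeast libraries. The lowest raw count of any member in any library was 4265, at which counting alone gives a coefficient of variation (CV, SD over mean) of 1.53%. A normalized count is a raw count over the library's own scaling factor, with no division by gene length. Ranks therefore order genes by reads, not by transcripts per cell.

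The steady genes held nearly the same part of gene counts in both forms, which largely follows from the rule on the ratio. Together they took 18.1%, 18.2%, 17.7% and 16.7% of gene counts in filamentous replicates 1 to 4, against 17.7%, 18.0%, 18.2% and 17.0% in yeast replicates 1 to 4. The means were 17.7% ± 0.668 with filamentous growth and 17.7% ± 0.514 with yeast growth (SD, n = 4 each). Replicate 4 had the lowest share within each form. The other 188 of the 300 genes took 36.0% ± 2.41 in filamentous libraries and 32.8% ± 0.882 in yeast libraries. Of these 188, 63 had a ratio above 1.4 and 125 a ratio below 0.714.

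**Figure D1:**
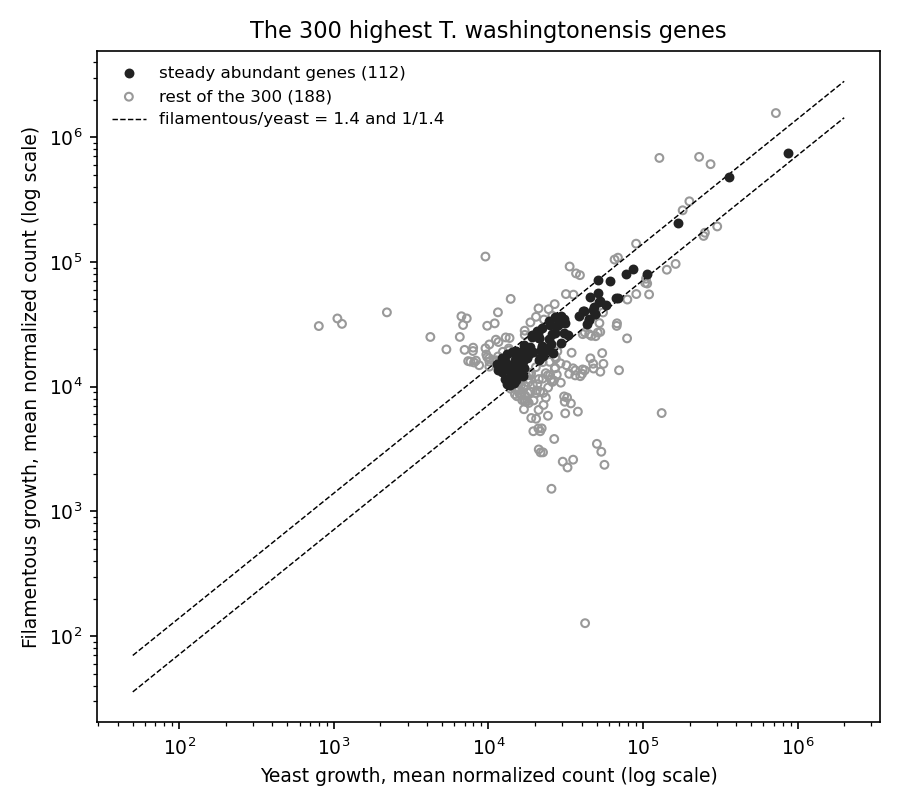
Mean normalized count in filamentous growth (vertical, log scale) against yeast growth (horizontal, log scale) for the 300 highest genes, 4 libraries per form. Filled points are the 112 steady genes between the dashed lines of ratio 1.4 and 1/1.4, and open points are the other 188, of which 63 lie above and 125 below.

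Steady genes were found in every class of rank. They were 2 of the 10 highest genes, 17 of the genes ranked 11 to 50, 20 of those ranked 51 to 100, 42 of those ranked 101 to 200 and 31 of those ranked 201 to 300. Among the 300 the share inside the window was 37.3%, and it was 43.7% for genes ranked 301 to 600, 51.7% for genes ranked 1201 to 2400 and 47.1% over all 6727 genes tested. Of the 112 members, 104 were among the 300 highest genes of each form taken alone. The lowest ranks of a member were 313 in filamentous and 337 in yeast growth. The Spearman correlation of member levels between forms, across genes chosen for like levels, was 0.911.

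**Figure D2:**
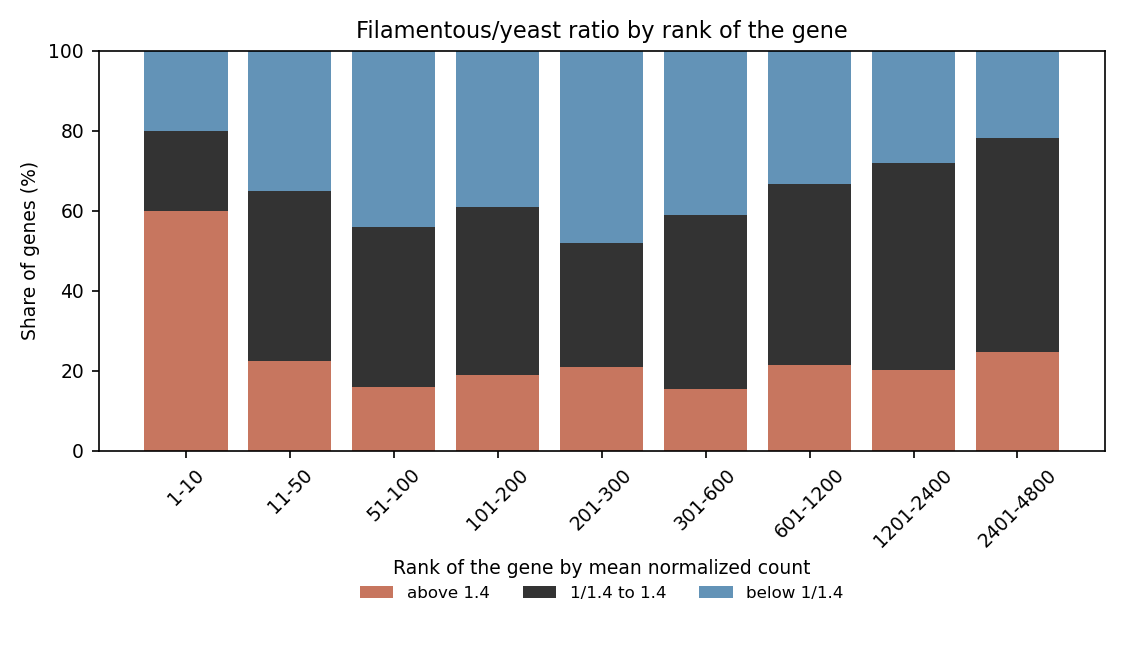
Share of genes (vertical, %) whose filamentous over yeast ratio lay above 1.4, from 1/1.4 to 1.4, or below 1/1.4, by rank of the mean normalized count (horizontal). The middle band holds 20% of the 10 highest genes, 31% to 42.5% of the genes in the other classes down to rank 300 and 53.6% at ranks 2401 to 4800.

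The members were very unequal in level. FA09DRAFT_330858 alone made up 18.9% of the normalized signal of the 112 genes, and the 10 highest members 45.1%. FA09DRAFT_330858 stood at 744211, 871522, 758700 and 579592 normalized counts in filamentous replicates 1 to 4, against 876084, 890633, 918019 and 756211 in yeast replicates 1 to 4. The forms overlapped, as filamentous replicates 2 and 3 were above yeast replicate 4. It was the highest of all genes in yeast growth and the second in filamentous growth. The other 111 members together took 14.6% ± 0.486 of gene counts with filamentous growth and 14.1% ± 0.397 with yeast growth (SD, n = 4 each).

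FA09DRAFT_328967, the second member by level, had 464979, 572117, 539797 and 323806 normalized counts in filamentous libraries and 353327, 393936, 377624 and 303474 in yeast libraries. Filamentous replicates 1 to 3 lay above all yeast libraries, and filamentous replicate 4 lay among them. Its mean ratio was 1.33. FA09DRAFT_213457 had 220260, 224010, 198498 and 171995 in filamentous libraries and 162660, 176069, 140622 and 191530 in yeast libraries, a ratio of 1.21. Here yeast replicate 4 was the highest of its form, while filamentous replicate 4 was again the lowest of its own.

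The next members by level, from FA09DRAFT_324017 to FA09DRAFT_332438, spanned most of the window. FA09DRAFT_324017 had a ratio of 0.753, with 80363 ± 12111 normalized counts with filamentous growth and 106715 ± 18759 with yeast growth (SD, n = 4 each). FA09DRAFT_337553 had a ratio of 1.385, with 70932 ± 10495 in filamentous and 51231 ± 9679 in yeast libraries. FA09DRAFT_343695 and FA09DRAFT_297199 lay between them, with ratios of 1.16 and 1.09. FA09DRAFT_317694, FA09DRAFT_331796 and FA09DRAFT_332438 were lower in filamentous growth, with ratios of 0.750, 0.761 and 0.781. Of these 12 highest members, FA09DRAFT_332438 was the one whose libraries did not overlap: it had 41460 to 49194 normalized counts in filamentous libraries and 53435 to 61157 in yeast libraries.

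**Figure D3:**
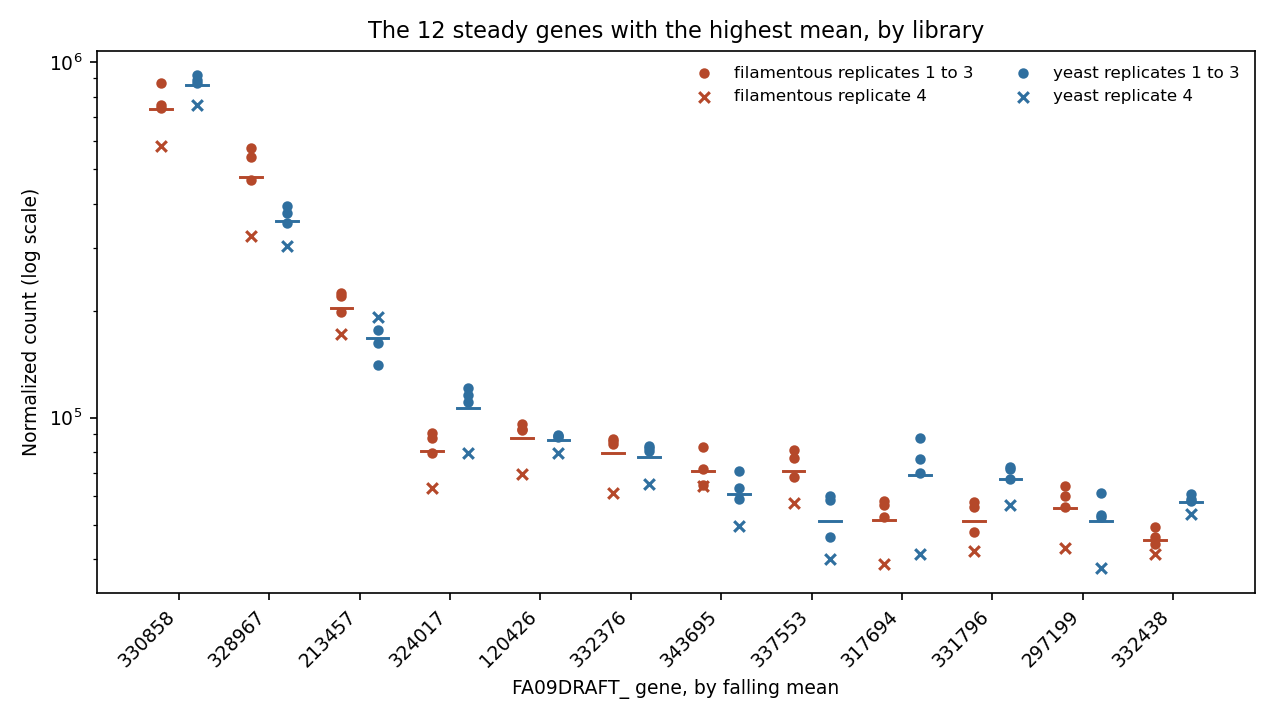
Normalized count (vertical, log scale) of the 12 highest steady genes (horizontal) in each library, filamentous growth left of yeast growth for each gene. Dots are replicates 1 to 3, crosses are replicate 4, and bars are means of 4 libraries. FA09DRAFT_330858 leads at 579592 to 871522 in filamentous and 756211 to 918019 in yeast libraries, and filamentous replicate 4 is the lowest filamentous library for all 12.

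The genes with ratios nearest 1 differed in how tightly their libraries agreed. FA09DRAFT_120426 had 96237, 92688, 92572 and 69578 normalized counts in filamentous libraries, against 89595, 87959, 88974 and 79361 in yeast libraries, a ratio of 1.01. Its means, 87769 ± 12246 and 86472 ± 4789 (SD, n = 4 each), lay close together, while filamentous replicates 1 to 3 were all above the yeast libraries and filamentous replicate 4 was below them. FA09DRAFT_299435 had 19027, 20001, 17522 and 15904 in filamentous libraries and 19062, 19047, 19582 and 15443 in yeast libraries, a ratio of 0.991, and its forms overlapped throughout their range. FA09DRAFT_347063, FA09DRAFT_330837 and FA09DRAFT_331688 had ratios of 1.01, 0.988 and 0.986, with CVs of 20.1%, 12.3% and 23.0% in filamentous and 6.58%, 15.2% and 9.03% in yeast libraries.

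At the edges of the window the values changed gradually. The members nearest the upper edge were FA09DRAFT_332627, FA09DRAFT_337553 and FA09DRAFT_328630, with ratios of 1.395, 1.385 and 1.381, and the nearest genes outside it, FA09DRAFT_338317 and FA09DRAFT_332167, both had 1.43. The members nearest the lower edge were FA09DRAFT_330242, FA09DRAFT_320368 and FA09DRAFT_329997, at 0.717, 0.727 and 0.730, and outside it FA09DRAFT_324084 stood at 0.713 and FA09DRAFT_340307 at 0.707. FA09DRAFT_330242 had 20201, 19260, 16524 and 18550 normalized counts in filamentous libraries, against 29251, 25721, 25556 and 23384 in yeast libraries, so that all filamentous libraries were below all yeast libraries. FA09DRAFT_308482 and FA09DRAFT_328457, the members ranked lowest by level, at 294 and 290, had ratios of 0.792 and 0.756.

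Within the window, 51 members had a ratio above 1 and 61 below 1, and the median ratio was 0.982. The ratio was within 1.1-fold for 32 members and within 1.2-fold for 66. In the edgeR quasi-likelihood fit across all genes, with a threshold of 0.05 on the Benjamini-Hochberg adjusted p, 32 of the 112 members passed, 12 higher and 20 lower in filamentous growth, beside 61.8% of all tested genes (31.1% higher and 30.7% lower). Filamentous and yeast libraries did not overlap for 20 members, 6 higher and 14 lower, beside 55.4% of all tested genes. The rule set both counts low by choosing on the same contrast, so nothing is read from them about the members. All members that passed had a ratio beyond 1.2-fold. The count was 17 without yeast replicate 1, 17 without yeast replicate 2 and 20 without yeast replicate 3. Over all tested genes these fits called 3765 of 6787, 3760 of 6789 and 3983 of 6790. Without filamentous replicate 4 the count of members was 43, of which 27 were higher and 16 lower, so that the balance of directions turned. That fit called 4359 of 6778 genes, 2194 higher and 2165 lower. With each of the other libraries left out in turn, 6 to 11 members were higher and 9 to 24 lower. Of all tested genes 1876 to 2066 were then higher and 1874 to 1994 lower.

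Upper-quartile scaling raised the median log2 fold change of all tested genes to 0.14, against 0.04 with the scaling used here (TMM, trimmed mean of M values). With it 29 members passed as higher and 8 as lower, against 12 and 20, and the median ratio of the members was 1.05. Of all tested genes 2452 then passed as higher and 1766 as lower, against 2091 and 2065. The balance of the members around 1 thus turned with the scaling, as it also did without filamentous replicate 4, where the median ratio of the members was 1.03.

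The precision of these fold changes was computed from the spread between libraries, with TMM scaling and the growth form alone in the fit. The standard error of a member's log2 fold change had a median of 0.13 and ranged from 0.10 to 0.25. For 47 members the 95% interval lay wholly inside the window, within ± 0.49 on the log2 scale, and for 65 it crossed an edge. The number inside was 44 to 57 under the other scalings and 60 with the replicate number added to the fit. FA09DRAFT_327904 had a narrow interval, from -0.39 to 0.05, and FA09DRAFT_329794 a wide one, from -0.58 to 0.54, although its ratio was 0.982. For the 65 members a difference between forms larger than 1.4-fold lies inside the interval.

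**Figure D4:**
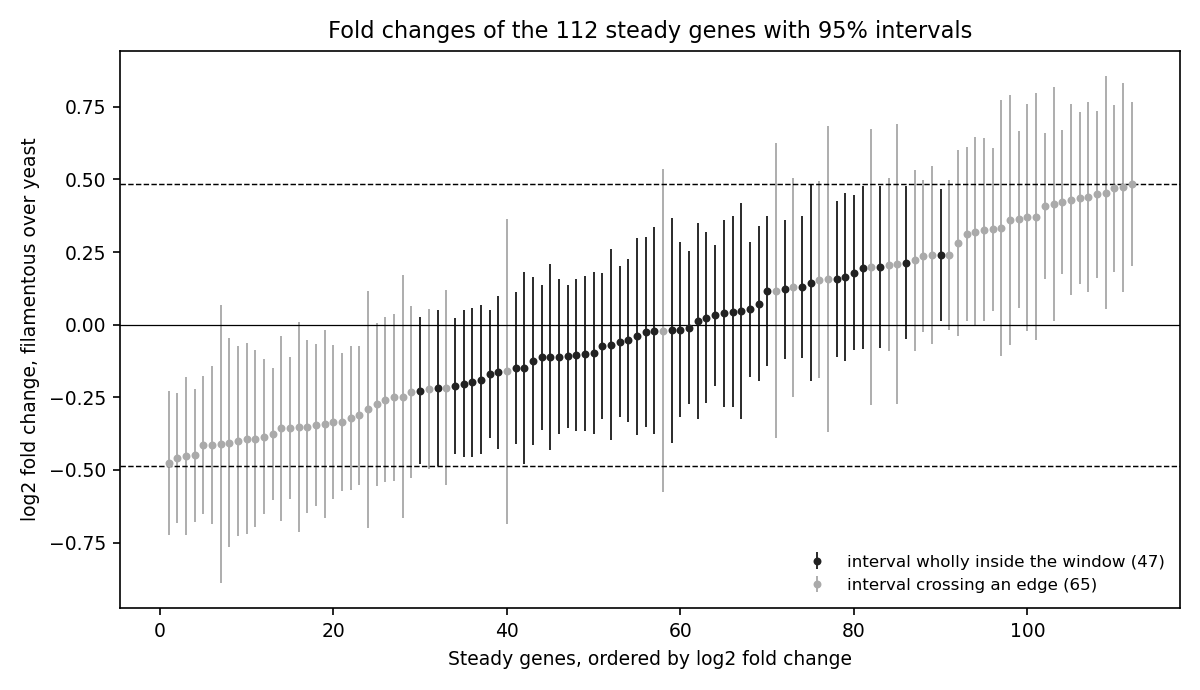
Log2 fold change, filamentous over yeast (vertical), with 95% interval from edgeR, for the 112 steady genes in order of fold change (horizontal). Dashed lines mark 1.4-fold in either direction. The 47 dark intervals lie inside both lines, and the 65 grey ones cross a line or both.

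Variation among libraries of the same form was not used by the rule on the ratio, though the means depend on it. The median CV of the members was 13.3% in filamentous and 9.71% in yeast libraries, and the medians were 15.4% and 12.1% for the other 188 genes and 14.8% and 11.4% over all tested genes. With the CVs of both forms averaged per gene, the median was 11.8% for the members. It was also 11.8% for genes ranked 301 to 600, 10.7% for ranks 601 to 1200 and 10.2% for ranks 1201 to 2400. The members were thus not more even than genes of lower rank. The CV was larger in filamentous libraries for 74 of the 112 members (66.1%), beside 62.6% of all tested genes. The highest library exceeded the lowest at least 2-fold for 6 members among filamentous and for 2 among yeast libraries. Across all 8 libraries, highest over lowest was at most 1.4 for 22 members and had a median of 1.59.

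FA09DRAFT_329794 was the most variable member in filamentous growth among those named here, at 40332, 53137, 47428 and 20081 normalized counts, against 46823, 45397, 38623 and 33006 in yeast libraries. FA09DRAFT_314530 had 34019, 42215, 37089 and 16552 in filamentous libraries, against 30385, 31856, 30476 and 24176 in yeast libraries. In both genes filamentous replicate 4 was less than all 4 yeast libraries. FA09DRAFT_334497 had the highest CV of any member in yeast growth, 31.5%, with 12901, 15271, 14822 and 9479 in filamentous libraries and 12575, 12803, 16209 and 6974 in yeast libraries. FA09DRAFT_328523 and FA09DRAFT_317694 completed the 5 members with the highest CV, at 21.7% and 17.3% in filamentous and 22.8% and 28.7% in yeast libraries.

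At the other end, FA09DRAFT_341406 had 16572, 17080, 16041 and 16019 normalized counts in filamentous libraries and 20645, 23062, 19367 and 22289 in yeast libraries. Each form was tight and the forms did not overlap, at a ratio of 0.770. FA09DRAFT_361399 had 31587, 25901, 26778 and 32937 in filamentous libraries, all above the 21889, 21851, 22255 and 22299 in yeast libraries, where its CV was 1.07%. FA09DRAFT_327904 and FA09DRAFT_86854 had CVs of 6.29% and 7.68% in filamentous and 5.85% and 5.34% in yeast libraries, with ratios of 0.889 and 0.862. The smallest CV over all 8 libraries, 6.69%, was that of FA09DRAFT_312688, chosen after its values were seen, with 16183 ± 1211 normalized counts under filamentous growth and 15628 ± 986 under yeast growth (SD, n = 4 each).

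Replicate 4 was low in normalized counts for most members in both forms. Filamentous replicate 4 was the lowest of its form for 78 members and yeast replicate 4 for 88, where these libraries were the lowest for 38.3% and 36.0% of all tested genes. Both were lowest for 69 members (61.6%), beside 18.0% of all tested genes, and neither for 15. Set against the mean of the other libraries of its form, the median log2 deviation of the members was -0.30 in filamentous replicate 4 and -0.22 in yeast replicate 4. The other 188 genes gave -0.37 and -0.27, and all tested genes -0.03 in each, so the low values were shared with the other highly ranked genes. Normalized counts depend on each library's scaling factor. As a share of gene counts the members took 16.7% in filamentous replicate 4, against 17.7% to 18.2% in the other filamentous libraries. They took 17.0% in yeast replicate 4, against 17.7% to 18.2% in the other yeast libraries. The part of the scaling in the low values was not tested. Filamentous replicate 2 was the highest of its form for 67 members, beside 21.9% of all tested genes, with a median deviation of 0.19.

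Yeast replicate 4 was the highest of its form for 7 members, beside 29.6% of all tested genes. Filamentous replicate 4 was the highest of its form for 5 members, beside 34.0% of all tested genes. FA09DRAFT_361399 above was among these 5. FA09DRAFT_327925 had 35836, 31790, 29036 and 39316 normalized counts in filamentous libraries and 46527, 45350, 44272 and 41697 in yeast libraries. FA09DRAFT_336934, FA09DRAFT_329361 and FA09DRAFT_309986 were the others, at 29900, 19614 and 16605 in filamentous replicate 4. Without both libraries of replicate 4 the median CV of the 112 members was 8.84% in filamentous and 5.57% in yeast libraries, and it was larger in filamentous libraries for 87 of them. The rule then took 108 genes, 104 of them among the 112, and 52 members passed the edgeR test, 27 higher and 25 lower. Of 6748 tested genes 4415 passed, 2227 higher and 2188 lower. Filamentous replicate 4 had the fewest gene counts, 12.3 M, while yeast replicate 4 had the most of the yeast libraries, 30.0 M. The part of depth in these values was not tested.

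**Figure D5:**
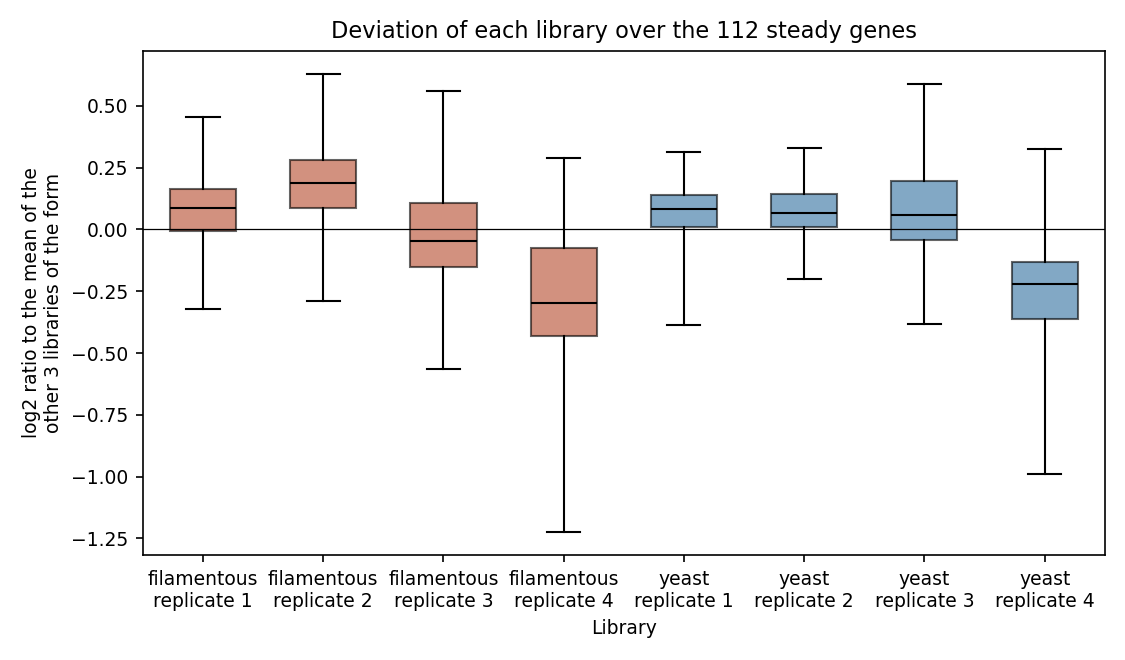
Log2 ratio of each library to the mean of the other 3 libraries of its form (vertical) over the 112 steady genes, filamentous libraries left of yeast libraries (horizontal). Boxes span the quartiles with the median as a line, and whiskers the full range. The boxes of replicate 4 sit low in both forms, with medians of -0.30 and -0.22.

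To see the ratio in libraries that had no part in the choice, the rule was applied without each pair of libraries that share a replicate number, and the ratio within the left-out pair was then taken. Without replicate 1 the rule took 113 genes, and 102 of them (90.3%) had a ratio inside the window in the left-out pair. For replicates 2, 3 and 4 these numbers were 99 of 122 (81.1%), 89 of 114 (78.1%) and 84 of 108 (77.8%). Over all 300 highest genes, the chosen ones among them, 35.3% to 39.0% were inside the window in the left-out pair. Nearly all the rest stayed within 2-fold: 112, 121, 114 and 108 of the chosen genes did. The genes outside the window leaned to higher in filamentous growth in pair 2, 19 against 4, and to lower in pair 3, 6 against 19. The scaling factors had been set by the authors on all libraries together, and no label says that each library came from its own culture. The left-out pair is therefore not fully separate.

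In the gene order of assembly Tilwa1, used only to tell which genes are adjacent, 2 pairs of members lay side by side, among 28 adjacent pairs within the 300 genes. FA09DRAFT_308545 and FA09DRAFT_334371 had ratios of 0.870 and 1.25, and FA09DRAFT_347013 and FA09DRAFT_331898 had ratios of 1.29 and 0.970. Of the 205 tested neighbours that were not members themselves, 67 were called higher and 61 lower in filamentous growth, together 62.4%, close to the 61.8% of all tested genes. Of these neighbours 22.4% changed 2-fold or more, beside 24.6% of all tested genes.

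Some members stood next to genes that changed several-fold, chosen here after their values were seen. FA09DRAFT_330858, with its ratio of 0.858, lay beside FA09DRAFT_330860, which averaged 3194 normalized counts with filamentous growth and 698 with yeast growth, a log2 fold change of 2.20. FA09DRAFT_323876, with a ratio of 0.856, lay beside FA09DRAFT_179417, which averaged 61.8 in filamentous and 7.05 in yeast libraries. FA09DRAFT_327185, with a ratio of 0.749, lay beside FA09DRAFT_335864, which averaged 160 in filamentous and 1486 in yeast libraries, a log2 fold change of -3.21. Gene models overlapped a neighbour for 30 members (26.8%), beside 32.1% of all genes placed. Reads of overlapping genes cannot be told apart where the strand setting of the counting is not given.

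The same rule in *M. miltonrushii* took 72 of its 300 highest genes (24.0%), where it took 112 (37.3%) in *T. washingtonensis*. The genes outside the window also leaned the other way: 63 lay above and 125 below in *T. washingtonensis*, and 163 above and 65 below in *M. miltonrushii*. In *M. miltonrushii* these 72 genes held 6.26% ± 0.233 of gene counts with filamentous growth and 8.09% ± 0.0528 with yeast growth (SD, n = 3 each). No gene was matched between the species, and the difference between the counts was not tested.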

How the data were processed

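Poly(A)+ RNA was extracted from fungal biomass and sequenced, per the labels' protocols. Per the submitters' processing notes, the tools were DESeq2 1.20.0, HTSeq 0.7.0, TopHat2 2.1.1 and cutadapt 1.13, with no step named for each. Build, annotation and strand setting of the counting were not given in the sources used here. Read counts per protein identifier make up the raw tables the authors deposited. The values of the deposited normalized tables are a signal: within each library, the raw count over a constant factor, checked to a relative deviation of 5e-15. Lines that name no gene, 14.9% to 17.8% of listed totals, were left out.

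Members were chosen on the normalized table. Raw counts were fitted in R 4.3.3 with edgeR 4.0.16 (filterByExpr, TMM factors, robust quasi-likelihood test on growth form, Benjamini-Hochberg adjustment over 6727 genes, threshold 0.05), tested on simulated data. Standard errors are the absolute log2 fold change over the square root of F. Alternatives used DESeq2 1.42.0 and limma 3.58.1 (pseudocounts 1 and 10, genes with a mean of at least 10). Python 3.11.15 with pandas 2.3.3 and numpy 2.4.6 gave the other values. Intervals cover the spread between libraries, which may be technical, since no label says that each came from its own culture.

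The members, lists and tests were chosen with earlier results of these data known. Named members are the 12 highest by level, those nearest the edges of the window, nearest a ratio of 1, with the lowest and highest CV or the lowest adjusted p, and nearest rank 300. Lists by product, and features of proteins and promoters, were not used here.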

Additional observations from a re-analysis of the deposited data

Results flagged for a closer look

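In 8 of 64 sets of 4 libraries, from the 32 named members in each form, 1 library lay far from the other 3. Over all 112 members it was 14 of 224 sets. A rate of 1 in 20, which holds for separate sets not chosen on their values, would give 3.2 and 11.2. The named members were picked in part on CV and ratio, and all sets come from the same 8 libraries. These counts are therefore a description. FA09DRAFT_120426 was far below the others in replicate 4 of both forms, at 69578 normalized counts in filamentous and 79361 in yeast replicate 4. FA09DRAFT_332376 was likewise low in both, at 61519 in filamentous and 65004 in yeast replicate 4, where its other filamentous libraries had 84112 to 86869 and its other yeast libraries 80558 to 83016. In yeast replicate 4 alone, FA09DRAFT_299435 was low at 15443, FA09DRAFT_320368 at 12948 and FA09DRAFT_328457 at 9992. FA09DRAFT_331688 was high there, at 21956, where its other yeast libraries had 18126 to 18754. Of the 14 sets, 12 were low values of replicate 4, 4 in filamentous and 8 in yeast growth. The flags rest on normalized counts, and so on each library's scaling factor. As a share of gene counts FA09DRAFT_120426 stood at 0.361% ± 0.00325 in yeast and 0.368% ± 0.0266 in filamentous libraries (SD, n = 4 each). By share its yeast libraries were thus close together.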

How the results depend on the processing

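The number of steady genes, 112, was 110 to 118 when 1 library was left out, with 102 to 111 of the 112 kept. The fewest, 102, were kept without filamentous replicate 4. The number was 113, 114 and 116 with TMM scaling, library size alone and upper-quartile scaling, which shared 112, 111 and 101 genes with the 112. By construction it moved with the limits: 66 with a window of 1.2, 200 with a window of 2, 39 among the 100 highest genes and 243 among the 600 highest. The number of members that passed the edgeR test, 32, was 29 to 44 under the other scalings, filters and tools, beside 3821 to 4377 of all genes. It was 17 to 43 when 1 library was left out, beside 3760 to 4359 of all genes. It was 52 without both libraries of replicate 4, a setting added after the data were seen, with which the median CV of the members was 7.46% against 11.8%. With the replicate number as a block it was also 52, 22 higher and 30 lower. That fit called 4315 of 6727 genes, 2172 higher and 2143 lower. The numbers used here are those of the titles, and the descriptions number the same libraries differently, with replicate 4 as R5. In this species both share their numbers between forms without saying what they mark. Deviations of same-numbered libraries correlated at 0.159, 0.176, -0.022 and 0.148 over all tested genes and at 0.068, 0.475, 0.145 and 0.322 over the members, and the libraries of replicate 3 over all tested genes, and those of replicates 1 and 3 over the members, did not all correlate best with their own number. The block moved neither the number of all genes called nor that of intervals inside the window (60) by over 1.5 times. All genes called numbered 3760 to 4415 under every setting, beside 4156. Members whose interval lay inside the window numbered 32 to 61, beside 47. For the 36 named genes, no fold change moved by more than the spread between libraries. That of FA09DRAFT_328967, 0.42 on the log2 scale, was past the 1.4-fold edge of 0.49 in some settings. It was 0.56 without filamentous replicate 4 and 0.52 with upper-quartile scaling. With each other library left out in turn it was 0.32 to 0.46. The cause of these movements was not tested. At these depths counting error is small beside the spread between libraries.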
